A study of Mus musculus with 2 samples.

Results

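Glycolysis turns glucose into pyruvate, and 3 of its steps, together with the conversion of pyruvate to lactate, are carried out by enzymes that mammals encode in several genes. The 10 genes described here are the hexokinases Hk1, Hk2 and Hk3, the phosphofructokinases Pfkl, Pfkm and Pfkp, the pyruvate kinases Pkm and Pklr, and the lactate dehydrogenases Ldha and Ldhb. They were taken by name from the gene tables, all 10 of 10 were found among 43346 named genes, and their 69 listed transcripts were taken from the transcript tables. Kidney of C57BL/6J mice, an inbred strain, was sequenced at 8 weeks of age in 2 libraries, replicate 1 and replicate 2 of the group adult kidney. The labels describe each as a pool of littermates of both sexes, give both the same donor label, and state that health is unknown. No treatment or genotype was compared, so the data give levels, isoforms and the difference between the libraries.

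Isoenzymes of a step catalyse the same reaction but differ in affinity, regulation and tissue. Hexokinases trap glucose in the cell as glucose 6-phosphate, phosphofructokinases commit it to glycolysis, and pyruvate kinases make pyruvate and ATP in the last step. Lactate dehydrogenases interconvert pyruvate and lactate. In the kidney, the proximal tubule is known for making glucose and for using fatty acids and lactate, whereas the distal segments and the medulla are known for glycolysis.

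Replicate 1 held 67252609 expected counts (estimated fragments, which need not be whole) and replicate 2 held 87330097. Levels are given as the deposited TPM, which corrects counts for transcript length and scales each library to a common sum. Genes can thus be compared. The length used is not the listed one, and short transcripts gain more in TPM than listed length alone would give. In replicate 1, the transcript Pklr-203, of 349 bases, had 377 counts and 48.8 TPM. Pklr-202, of 2902 bases, had 3438 counts and 23.8 TPM. Of all genes, 13108 reached 1 TPM in both libraries, with a median of 12.6 TPM. The tissue label was checked by markers: all 4 of 4 proximal tubule markers were detected, with summed levels of 8065 TPM in replicate 1 and 5926 TPM in replicate 2, and so were all 7 markers of the later tubule segments and of podocytes. Replicate 2 stood apart in markers of skeletal muscle. Their summed level was 14.9 TPM in replicate 1 and 690.1 TPM in replicate 2, and all 5 of 5 differed past 2-fold, with none at 0 counts. In replicate 1, Pvalb gave 12.9 TPM of this sum, and every other muscle marker was under 1 TPM. In replicate 2, Pvalb had 35.3 TPM. Its scaled counts differed 3.03-fold, against 213-fold to 1509-fold for the other muscle markers. Whether Pvalb in replicate 1 came from muscle was not tested. Genes of the mitochondrial genome held 6.75% of expected counts in replicate 1 and 11.7% in replicate 2, which lowers the TPM of every other gene in replicate 2. In bulk tissue, fewer cells of a type and less RNA per cell cannot be told apart.

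In both libraries 9 of the 10 genes reached 1 TPM, and the median of those 9 was 63.4 TPM. Ldhb was the highest at 1389.7 ± 30.3 TPM (SD, n = 2 here and below) and ranked at position 70 of all genes. Ldha followed at 477 ± 52.0 TPM and Pkm at 448 ± 61.7 TPM. Next came Pfkl at 67.8 ± 4.21, Pklr at 63.4 ± 15.3, Pfkp at 51.5 ± 2.91, Hk1 at 43.6 ± 4.43 and Pfkm at 35.5 ± 1.68 TPM. Hk2 stood far lower at 2.99 ± 1.46 TPM, and Hk3 was the only one under the limit, at 0.630 ± 0.0707 TPM. Of neighbours in this order, the library values of Ldha and Pkm overlapped, as did those of Pfkl and Pklr and those of Pklr and Pfkp. Within each library, however, Ldha was above Pkm, at 514 and 491 TPM in replicate 1 and 441 and 404 TPM in replicate 2. Pklr was likewise above Pfkp, at 74.2 and 53.6 TPM and at 52.6 and 49.5 TPM. Their deposited intervals of the quantification overlapped in replicate 2. Pfkl and Pklr changed places, with Pfkl at 70.8 and 64.8 TPM, so the order of this pair is not resolved by these libraries. The other neighbours did not overlap.

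**Figure D1:**
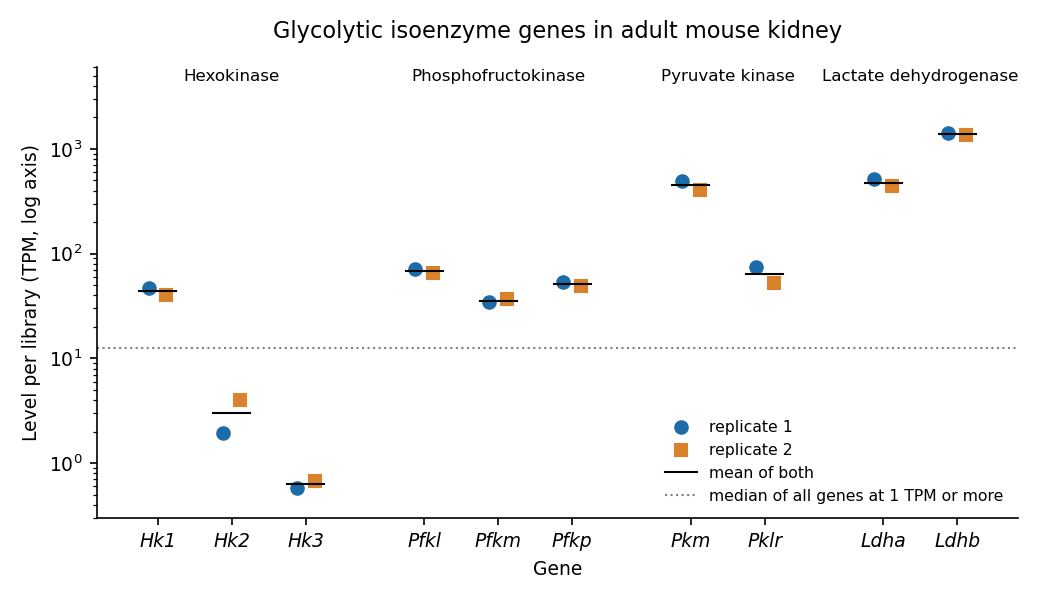
TPM of each of the 10 isoenzyme genes (vertical log axis) in replicate 1 (circles) and replicate 2 (squares), with the mean of both as a bar and the median of all genes at 1 TPM or more, 12.6 TPM, as a dotted line. Ldhb, Ldha and Pkm stand highest, and only Hk2 and Hk3 lie under the dotted line.

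Hk1 made up most of the hexokinase message. It encodes the widely expressed hexokinase of many tissues (GRCm38 chromosome 10, 62268855 to 62379908, minus strand). Hk1 had 46.7 TPM in replicate 1 and 40.5 TPM in replicate 2, which was 94.9% and 89.6% of the summed TPM of the 3 hexokinase genes. Hk2 (chromosome 6, 82725025 to 82774454, minus strand), the insulin-responsive form of muscle and fat, had 1.95 TPM in replicate 1 and 4.02 TPM in replicate 2. Hk3 (chromosome 13, 55005985 to 55021385, minus strand), known from white blood cells, had 0.58 TPM in replicate 1 and 0.68 TPM in replicate 2, on 80 and 144 expected counts. Hk1 was thus 24.0 times Hk2 in replicate 1 and 10.1 times Hk2 in replicate 2, and the ranges of the 3 genes did not overlap.

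Most Hk1 message was assigned to Hk1-202. In hexokinase 1, the coding part of this transcript's first exon is known to encode the N-terminal segment that anchors the enzyme to the outer mitochondrial membrane. Hk1-201 starts 17820 bases farther upstream and replaces this segment by coding bases from a pair of other exons, and transcripts of this kind are known from male germ cells of the mouse. The transcripts also differ in a coding exon of 69 bases, exon 10 of Hk1-201, which Hk1-202 lacks. The start of the coding sequence is shown for both because the anchoring segment lies there, from 5′ to 3′ on the minus strand of GRCm38 chromosome 10, with the start codon in capitals. The segments lie at chr10:62340013-62340075 for Hk1-202, and at chr10:62358336-62358362 and chr10:62353058-62353105 for Hk1-201.
Hk1-202 exon 1: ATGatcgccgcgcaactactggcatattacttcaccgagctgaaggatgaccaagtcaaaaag
Hk1-201 exon 1: ATGggacagaactgccagcgaggacag
Hk1-201 exon 2: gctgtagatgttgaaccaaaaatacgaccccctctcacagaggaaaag

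Hk1-202 held 82.7% of Hk1 TPM in replicate 1 and 92.7% in replicate 2, with levels of 38.6 and 37.5 TPM. Hk1-201 held 15.6% in replicate 1 and 5.90% in replicate 2. Its level was 7.29 TPM in replicate 1 (deposited interval of the quantification 4.74 to 9.38) and 2.39 TPM in replicate 2 (1.28 to 4.15), so the intervals did not overlap. The deposited SD of its count was 222 on 1344 counts in replicate 1 and 187 on 611 counts in replicate 2. It shares 16 exons with Hk1-202, and 4.63% of its 31-base words are absent from that transcript. The spermatid marker Prm1, a protamine of sperm chromatin, had 3.10 TPM in replicate 1 and 1.18 TPM in replicate 2, and Tnp1, a transition protein, had 0.80 and 0.44 TPM. The summed level of Prm1 and Tnp1 was 3.90 TPM in replicate 1 and 1.62 TPM in replicate 2, and neither was at 0. These levels rest on few counts, 44 and 24 for Prm1 and 10 and 8 for Tnp1. Of the 2, 1 (Prm1) differed past 2-fold, beside 10.8% of all genes with 10 or more counts in sum. Their part in the level of Hk1-201 was not tested. Hk1-203, which starts farther upstream still, had 0 counts in both libraries, as did 15 of the 20 Hk1 transcripts in all. Hk1os, an antisense gene over Hk1, had 1.55 TPM in replicate 1 and 2.01 TPM in replicate 2.

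Among Hk2 transcripts, the complete Hk2-201 held 66.2% of the gene's TPM in replicate 1 and 72.4% in replicate 2. The short Hk2-202, a processed transcript of 594 bases, held 17.3% and 27.6% of TPM on only 1.68% and 2.79% of the counts. Hk2-204, with an alternative start, held 16.5% in replicate 1 on 44.6 counts and was at 0 in replicate 2, with deposited SDs of 20.9 and 19.3 counts. For Hk3 the transcripts could not be separated. Hk3-204, annotated as a target of nonsense-mediated decay, held 56.3% of TPM in replicate 1 and 100% in replicate 2, but the deposited posterior mean gave it 27.5% and 60.5%. Hk3-203, Hk3-205 and Hk3-208 held 21.7%, 10.2% and 11.8% of TPM in replicate 1 and 0% in replicate 2.

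The 3 phosphofructokinase genes were all expressed well above the median of detected genes. Pfkl, the liver-type subunit (chromosome 10, 77986947 to 78010083, minus strand), had 70.8 TPM in replicate 1 and 64.8 TPM in replicate 2. Pfkp, the platelet-type subunit (chromosome 13, 6579768 to 6648777, minus strand), had 53.6 TPM in replicate 1 and 49.5 TPM in replicate 2. Pfkm, the muscle-type subunit (chromosome 15, 98092589 to 98132451, plus strand), had 34.3 TPM in replicate 1 and 36.7 TPM in replicate 2. They made up 43.8% ± 1.18, 33.3% ± 0.707 and 23.0% ± 1.89 of the family's TPM in that order, and no ranges overlapped.

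The order of Pfkp and Pfkm differed by other measures. By expected counts over all transcripts, not divided by length, Pfkp held 24.3% of the family in replicate 1 and 22.7% in replicate 2, against 24.5% and 27.3% for Pfkm. Most Pfkp TPM came from Pfkp-206, a transcript of 931 bases annotated as retaining an intron, with no coding sequence in the annotation. Pfkp-206 has the same start as the complete transcript Pfkp-201 and shares 6 of its own 7 exons with it. It follows the complete transcript Pfkp-207 from a start 52 bases away and then ends inside an intron. Its last exon, 223 bases at chr13:6619061-6619283 on the minus strand of GRCm38, is shown because it holds the stretch that tells it apart: 109 bases in lower case are exon in Pfkp-207, and 114 bases in capitals are intron there.
Pfkp-206 last exon: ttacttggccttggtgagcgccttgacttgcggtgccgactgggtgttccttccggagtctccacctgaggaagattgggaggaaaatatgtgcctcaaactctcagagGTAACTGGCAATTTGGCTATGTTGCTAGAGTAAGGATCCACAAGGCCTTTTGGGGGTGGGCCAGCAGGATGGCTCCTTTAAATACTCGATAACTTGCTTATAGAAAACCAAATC

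Pfkp-206 held 65.3% of Pfkp TPM in replicate 1 and 66.8% in replicate 2, but 27.9% and 29.7% of its expected counts. Its level was 35.0 TPM in replicate 1 (interval 32.3 to 37.2) and 33.0 TPM in replicate 2 (30.9 to 34.7). The complete Pfkp-207, of 4145 bases, held 23.3% of TPM in each library and 54.0% and 55.6% of counts. A short transcript gains weight in TPM, which is per length. Only 12.7% of the 31-base words of Pfkp-206 are absent from Pfkp-207. Pfkp also overlaps Pitrm1, a gene on the opposite strand at 29.0 TPM in replicate 1 and 23.4 TPM in replicate 2, over 748 bases that hold 17.4% of the words of Pfkp-207. All 7 transcripts of Pfkp annotated as retaining an intron together held 74.0% of TPM in replicate 1 and 73.1% in replicate 2.

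Counting only complete coding transcripts (annotated as protein-coding, with a coding sequence not marked as cut short at an end), a choice made after seeing the data, Pfkp took the lowest place of its family. Its level was then 13.8 TPM in replicate 1 and 13.3 TPM in replicate 2. Pfkm kept 34.3 and 36.7 TPM, and Pfkl had 52.5 and 49.2 TPM. Pfkp was 1.56 times Pfkm in replicate 1 and 1.35 times in replicate 2 over all transcripts, whereas over complete ones Pfkm was 2.48 times Pfkp and 2.76 times Pfkp. Complete coding transcripts held 25.8% of Pfkp TPM in replicate 1 and 26.9% in replicate 2. By counts they held 57.7% and 61.1%.

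Of 12273 protein-coding genes at 1 TPM or more in both libraries, 1710 (13.9%) had under 50% of their TPM in complete coding transcripts, and the median share was 96.9%. Of the 9 isoenzyme genes detected, 2 were under 50%, Pfkp and Pklr, and Hk3 was also under it below the limit of detection. Pfkl lay between, with 74.1% of TPM in replicate 1 and 75.9% in replicate 2 in Pfkl-201, its only complete coding transcript. Pfkl-202, of 583 bases and marked as cut short, held 23.2% of TPM in each library on 3.23% and 3.25% of counts. Pfkm-201 held 98.4% and 97.0% of Pfkm TPM. Pfkm-202, which starts 15877 bases upstream, was estimated at 76.0 and 217.7 counts with deposited SDs of 108 and 327, larger than the estimates.

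**Figure D2:**
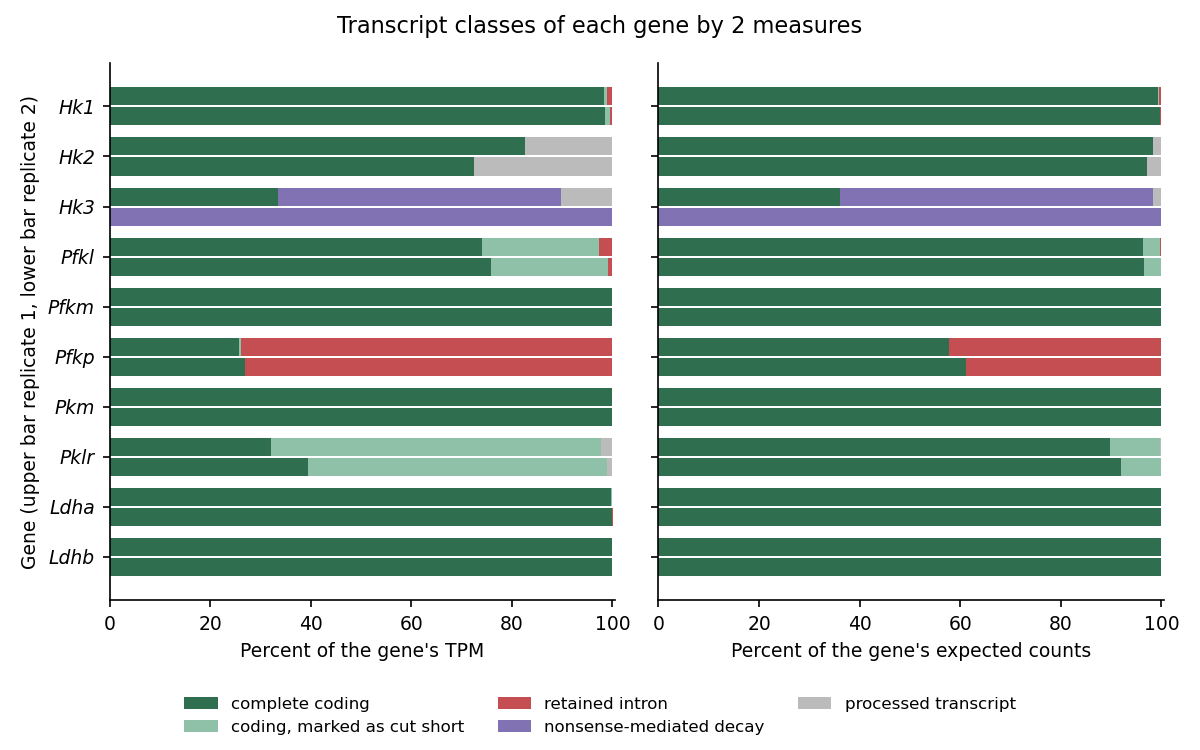
Share of each gene's TPM (left) and of its expected counts (right), in percent, by annotated transcript class, with replicate 1 as the upper and replicate 2 as the lower bar of each gene. Retained-intron transcripts fill 74.0% and 73.1% of Pfkp TPM and transcripts cut short fill 65.8% and 59.3% of Pklr TPM, and both classes are smaller by counts.

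**Figure D3:**
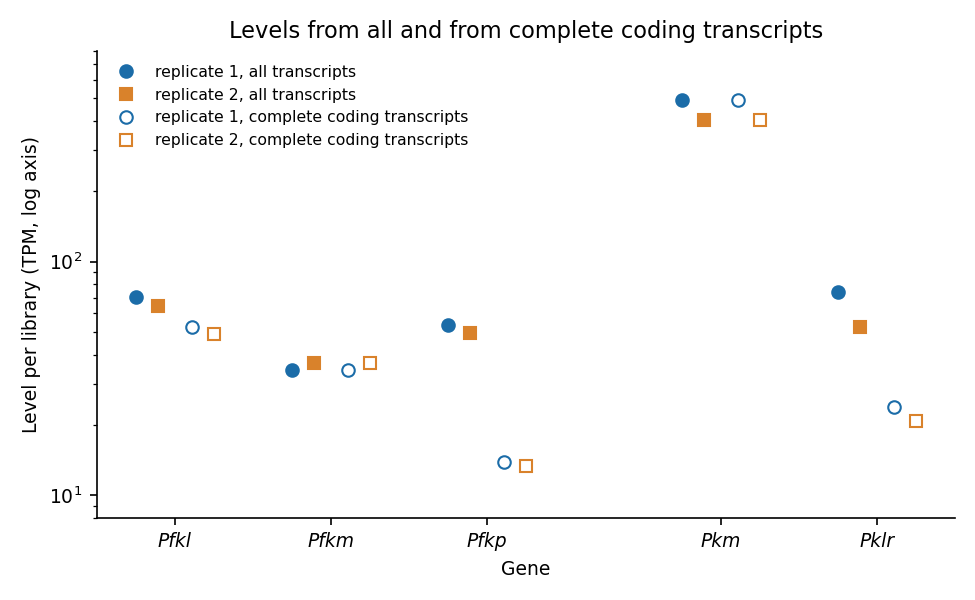
TPM (vertical log axis) of the phosphofructokinase and pyruvate kinase genes from all transcripts (filled) and from complete coding transcripts (open), in replicate 1 (circles) and replicate 2 (squares). Pfkp lies above Pfkm with all transcripts and under it with complete coding ones, and Pkm stays above Pklr either way.

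Pyruvate kinase message was mostly Pkm. Pkm (chromosome 9, 59656368 to 59679375, plus strand) encodes the M1 and M2 enzymes and had 491 TPM in replicate 1 and 404 TPM in replicate 2. Pklr (chromosome 3, 89136142 to 89146784, plus strand) encodes the liver and red-cell enzymes and had 74.2 TPM in replicate 1 and 52.6 TPM in replicate 2. Pkm held 86.9% of the family's TPM in replicate 1 and 88.5% in replicate 2, and it was 6.62 and 7.68 times Pklr. Over complete coding transcripts the ratio was larger, 20.7 in replicate 1 and 19.4 in replicate 2.

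The 2 transcripts of Pkm differ in a pair of exons of equal length, of which each transcript holds 1. Counted over the gene, exon 9 is in Pkm-202 and makes the M1 enzyme, the form of muscle and brain, and exon 10 is in Pkm-201 and makes the M2 enzyme, the form of many proliferating and epithelial cells, whose activity fructose 1,6-bisphosphate controls. The pair is shown because the isoform shares rest on it, as read on the plus strand of GRCm38 from chr9:59675029-59675195 and chr9:59675568-59675734, with capitals at the bases that differ. They differ at 64 of 167 bases (61.7% equal) and share no 31-base word.
Pkm exon 9 (Pkm-202): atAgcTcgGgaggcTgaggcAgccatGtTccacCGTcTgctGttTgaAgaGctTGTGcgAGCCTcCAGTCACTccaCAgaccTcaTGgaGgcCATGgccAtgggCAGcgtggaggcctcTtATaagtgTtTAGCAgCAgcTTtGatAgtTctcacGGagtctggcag
Pkm exon 10 (Pkm-201): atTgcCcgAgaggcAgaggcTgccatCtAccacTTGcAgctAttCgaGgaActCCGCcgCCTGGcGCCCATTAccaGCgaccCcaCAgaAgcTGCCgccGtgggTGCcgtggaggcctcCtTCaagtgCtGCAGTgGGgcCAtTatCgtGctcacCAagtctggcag

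The M2 transcript was the main one in both libraries. Pkm-201 held 85.0% of Pkm TPM in replicate 1 and 79.9% in replicate 2, with 418 and 323 TPM. Pkm-202 held 15.0% in replicate 1 and 20.1% in replicate 2, with 73.8 TPM (interval 69.1 to 77.2) and 81.1 TPM (77.5 to 84.1). The deposited SD of the Pkm-202 count was 227 on 8816 counts in replicate 1 and 256 on 13476 counts in replicate 2. The M1 share was therefore higher in replicate 2 by more than the uncertainty of the quantification. Scaled counts of Pkm-201 had a ratio of 1.15, replicate 1 over replicate 2, and those of Pkm-202 a ratio of 0.806. Markers of skeletal muscle, which uses the M1 form, were higher in replicate 2 as given above, and their part in this share was not tested. Both transcripts have 2432 bases in the deposited table, so their shares of counts and of TPM were the same to 3 digits.

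Pklr produces a red-cell and a liver enzyme from alternative starts, of which the red-cell start lies upstream. Pklr-201, with the upstream start, and Pklr-202, with a start 430 bases downstream, share 9 of their 11 exons. The coding parts of their first exons are shown because they hold the alternative start codons, on the plus strand of GRCm38 at chr3:89136183-89136282 and chr3:89136631-89136637, with the start codon in capitals.
Pklr-201 exon 1: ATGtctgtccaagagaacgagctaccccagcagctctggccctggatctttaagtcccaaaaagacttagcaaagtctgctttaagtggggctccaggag
Pklr-202 exon 1: ATGgaag

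Pklr-201 had 0 expected counts in both libraries, with deposited SDs of 12.5 and 17.2 counts. The processed transcript Pklr-205, which starts inside the same upstream exon, had 10.2 counts in replicate 1 and 4.22 in replicate 2, at 1.35 and 0.38 TPM. All 5 of 5 red-cell markers were detected, with summed levels of 7200.4 TPM in replicate 1 and 7695 TPM in replicate 2. The liver-type Pklr-202 held 89.8% of Pklr counts in replicate 1 and 91.9% in replicate 2, at 23.8 and 20.8 TPM. It shares 23.7% of its words with Hcn3, an overlapping gene on the opposite strand with 172 and 218 counts. By TPM, however, Pklr-203 came first with 65.8% in replicate 1 and 59.3% in replicate 2, on 9.86% and 7.91% of counts. This lead rests on the length correction of TPM, since Pklr-202 had more counts per listed base in both libraries. Pklr-203 is a short transcript. This transcript has 349 bases in 4 exons, starts 7 bases after Pklr-202, and its first exon ends 19 bases before that of Pklr-202. Its level was 48.8 TPM in replicate 1 (interval 42.9 to 54.3) and 31.2 TPM in replicate 2 (27.4 to 35.0). Pklr thus had the largest TPM ratio between the libraries of the 8 isoenzyme genes above 10 TPM, 1.41 for replicate 1 over replicate 2, whereas its scaled counts had a ratio of 1.04.

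**Figure D4:**
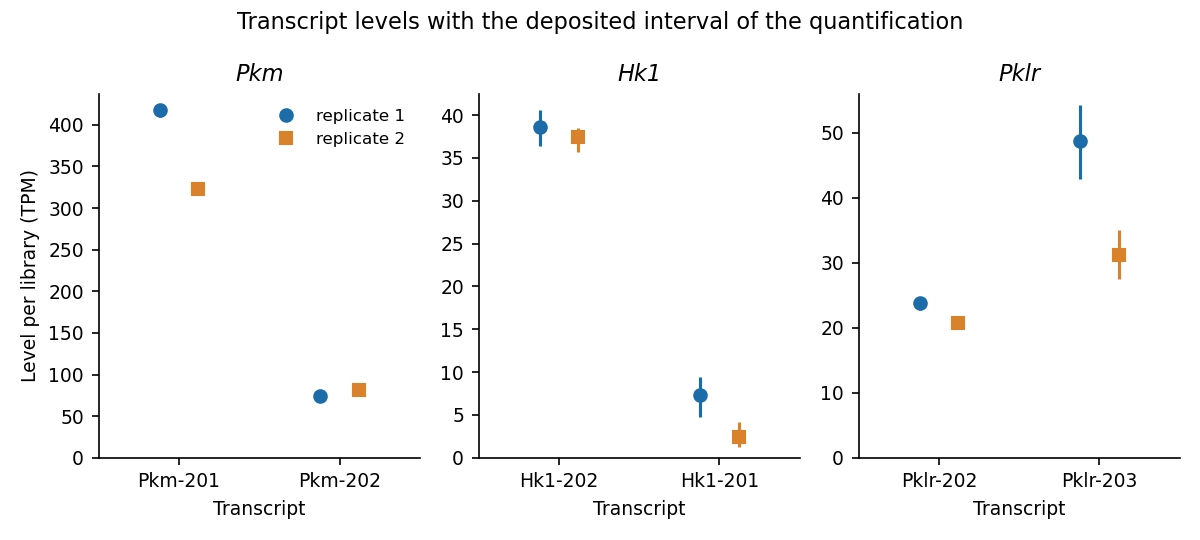
TPM of a pair of transcripts each of Pkm, Hk1 and Pklr in replicate 1 (circles) and replicate 2 (squares), with the deposited interval of the quantification as a line, shorter than the symbol where it cannot be seen. Pkm-201 and Hk1-202 lead in both libraries, and Pklr-203 lies above Pklr-202 in both.

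Lactate dehydrogenase message was mostly the heart type. Ldhb (chromosome 6, 142490249 to 142507957, minus strand), the subunit of tissues that take up and oxidise lactate, had 1411 TPM in replicate 1 and 1368 TPM in replicate 2. Ldha (chromosome 7, 46841475 to 46855627, plus strand), the muscle-type subunit that favours lactate production, had 514 TPM in replicate 1 and 441 TPM in replicate 2. Ldhb held 73.3% of the pair's TPM in replicate 1 and 75.6% in replicate 2, and it was 2.74 and 3.11 times Ldha. Each gene came almost wholly from 1 transcript. Ldhb-201 held 99.9% of Ldhb TPM in both libraries, and Ldha-202 held 99.7% of Ldha TPM in both. Ldhb shares 41.4% of its 31-base words with Gm5514, which was given 86.1 counts in replicate 1 and 75.1 in replicate 2, against 83176 and 112677 for Ldhb.

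With 1 group, the libraries were set against each other by the ratio of expected counts scaled by TMM (trimmed mean of M values, a correction for composition), replicate 1 over replicate 2. There is 1 library on each side, so intervals cover counting error only and no p-value was computed. Past 2-fold in either direction was 1 of the 10 isoenzyme genes, against 10.8% of 18707 genes with 10 or more counts in sum. At 1.5-fold it was again 1 of 10, against 21.0% of genes. The background moved with the filter on low counts. It was 4.18% at 2-fold over genes with 100 or more counts in sum, a filter that all 10 genes pass, and 22.0% with no filter. A count of 1 in 10 gives no result about these genes as a set.

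That gene was Hk2. It had 420 expected counts in replicate 1 and 1181 in replicate 2, a ratio of 0.438 (95% exact binomial interval 0.391 to 0.490). Replicate 2 was therefore 2.28-fold higher. With TPM and a pseudocount of 1 the log2 ratio was −0.77, under 2-fold. Beside it, the 5 skeletal muscle markers given above were higher in replicate 2. Of 6 myeloid markers, 3 were past 2-fold and higher in replicate 2. The summed levels of the 6 were 91.4 TPM in replicate 1 and 127 TPM in replicate 2. Lyz2, the highest, had 34.2 TPM in replicate 1 and 70.1 TPM in replicate 2. S100a8 and S100a9 were also past 2-fold, but on 3 and 15 counts and on 5 and 22 counts. Csf1r alone went the other way, with a ratio of 1.13. Of 2 brown fat markers none was past 2-fold, with summed levels of 234 and 297 TPM, and no marker of these 3 lists was at 0 counts in either library. Their part in the Hk2 ratio was not tested.

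The other ratios were closer to 1. Hk3 had 0.684 (0.514 to 0.906), Pfkm 0.830 (0.800 to 0.860) and Ldhb 0.909 (0.901 to 0.918), all with intervals under 1. Pfkl had 0.949, Pfkp 0.990 and Hk1 1.01, and the intervals of Pfkp and Hk1 included 1. The direction of Ldhb, Pfkl and Pfkp turned with TPM, which shifted the median log2 ratio of all detected genes to 0.19, and gave log2 ratios of 0.04, 0.13 and 0.11 for these 3 genes at a pseudocount of 1. With total counts in place of TMM, Pfkp also turned, at a log2 ratio of 0.06, and the ratio of Pfkl was 1 within rounding. Pklr had 1.04 (0.993 to 1.08), Ldha 1.03 (1.02 to 1.04) and Pkm 1.08 (1.07 to 1.09).

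**Figure D5:**
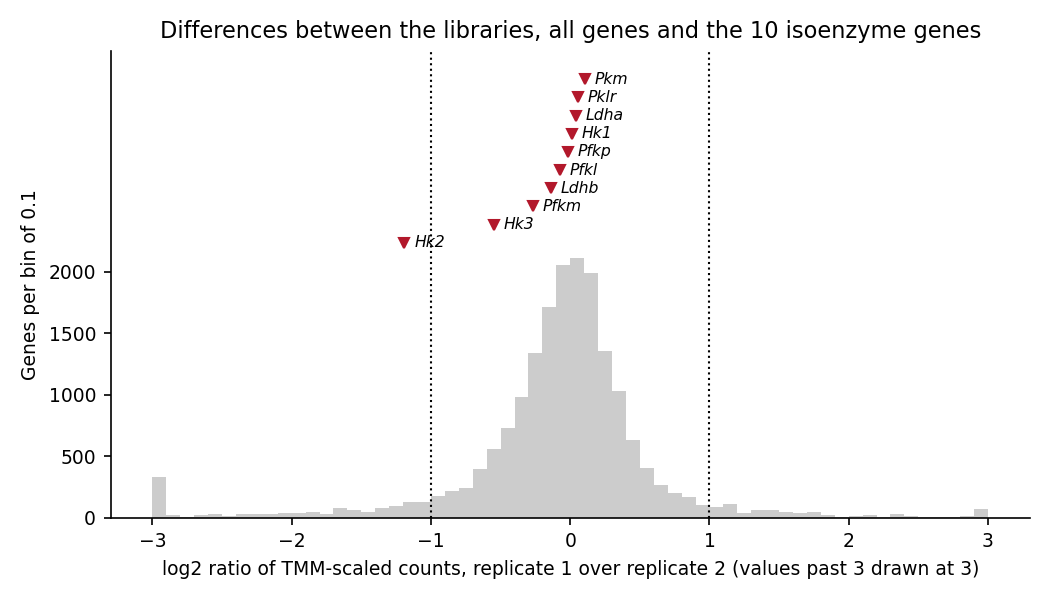
Histogram of the log2 ratio of TMM-scaled counts, replicate 1 over replicate 2, of 18707 genes in bins of 0.1, with the 10 isoenzyme genes as triangles set above it (their height has no scale) and 2-fold as dotted lines. Hk2 is past the lower line at −1.19, and the other 9 lie between the lines.

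The rest of the pathway was described by 50 genes in 8 lists. Of these, 42 reached 1 TPM in both libraries, with a median of 55.4 TPM, beside 12.6 TPM for all detected genes. Relatives of the hexokinases were low: Hkdc1, a further hexokinase, was the highest of 3 at 0.87 TPM in replicate 1 and 0.73 TPM in replicate 2, and Gckr, which encodes the regulator of glucokinase, had 5 and 0 counts. Of 3 relatives of the lactate dehydrogenases, 1 was detected, Ldhd, the D-lactate dehydrogenase of mitochondria, at 340 TPM in replicate 1 and 223 TPM in replicate 2. The steps that the isoenzymes share a pathway with were led by Gapdh, the glyceraldehyde phosphate dehydrogenase, at 6360 TPM in replicate 1 and 4942 TPM in replicate 2, and 12 of those 15 genes were detected. Pgk2, the phosphoglycerate kinase of sperm, had 5 and 6 counts.

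Enzymes that act on the same substrates were also present. Pfkfb3, whose product makes the activator of phosphofructokinase, was the highest of 5 at 14.1 TPM in replicate 1 and 14.7 TPM in replicate 2. All 6 opposing enzymes of gluconeogenesis were detected, led by Fbp1, the bisphosphatase that runs against phosphofructokinase, at 1298 TPM in replicate 1 and 1009.6 TPM in replicate 2. Fbp1 was thus above the summed phosphofructokinases, which had 159 TPM in replicate 1 and 151 TPM in replicate 2. All 7 genes for the fate of pyruvate were detected, led by Mpc1, a subunit of the mitochondrial pyruvate carrier, at 400.1 and 403 TPM. Ptbp1, which represses the M1 exon of Pkm, led its list of 5 splicing factors at 153 TPM in replicate 1 and 122 TPM in replicate 2. Mlxipl, a carbohydrate-responsive factor known to activate Pklr in liver, led its list of 6 factors at 129 and 94.3 TPM.

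Of the 49 pathway genes with 10 or more counts in sum, 4 (8.16%) were past 2-fold between the libraries, beside 10.8% of all genes. Eno3, the enolase of muscle, had 7.13 TPM in replicate 1 and 20.5 TPM in replicate 2, a ratio of 0.262 (0.235 to 0.292). Eno4, a further enolase gene, had a ratio of 0.359 on 7 and 24 counts. Gapdhs, the sperm form of the dehydrogenase, had 2.79 on 34 and 15 counts, and Ldhal6b, a further lactate dehydrogenase gene, had 2.46 on 32 and 16 counts. The muscle markers given for Hk2 moved the same way as Eno3, and their part in it was not tested.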

How the data were processed

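Gene and transcript tables of 2 libraries of 1 group, adult kidney, were used, with groups and replicate numbers from the labels. Per the labels, stranded paired-end reads came from polyadenylated RNA depleted of ribosomal RNA, with spike-ins. The deposited tables are on mm10 with annotation M4. Neither aligner nor quantifier is named (not given in the sources used here), nor is whether counting used strand. The authors deposited an expected count and a TPM per gene and transcript, and the share of a transcript in its gene's TPM in percent. The deposited bounds of the TPM interval and the posterior values were read as signal of the quantification. Junction and contig tables on mm9 were not used here.

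Transcript names, classes and positions came from GENCODE M21 on GRCm38, matched without versions. All 69 transcripts matched and 64 had equal length. Pkm-202 has 2432 bases in the deposited table and 2041 in M21. Numeric rows (all 0) and 97 spike-in rows, with 1.59% and 2.29% of counts, were left out. TMM factors from edgeR 4.0.16 under R 4.3.3 were 1.03 and 0.974, from rounded counts, and the ratios used unrounded counts. The scaling step was also run on simulated counts with known changes, which does not test the ratios between these libraries. DESeq2 1.42.0 size factors, other scalings, filters, pseudocounts (0.1 and 1), posterior means, shares of counts and leaving out each library were alternatives. Ratio intervals are 95% exact binomial on rounded counts and cover counting error only. SDs measure only the spread between these libraries, which carry 1 donor label.

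Named were all members, each transcript of 10% or more of its gene's TPM in a library, and per pathway list the highest gene, those under 0.1 TPM in both and those past 2-fold. Other transcripts were named for their start, and Prm1, Tnp1, Pvalb, Lyz2, S100a8, S100a9 and Csf1r as markers. The members and lists were chosen with earlier results of these data known. Pfkp overlaps Pitrm1, Pklr overlaps Hcn3, Pfkm overlaps Senp1 and Hk1 overlaps Hk1os on the opposite strand, so those counts are uncertain where transcripts overlap.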

Additional observations from a re-analysis of the deposited data

How the results depend on the processing

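The level order within families kept its direction except for Pfkp over Pfkm, which turned round with shares of expected counts (24.3% and 22.7% for Pfkp, 24.5% and 27.3% for Pfkm) and with complete coding transcripts only, a setting chosen after seeing the data. The complete coding setting also moved Pfkl to 50.9% of its family and Pkm to 95.2%. With shares of expected counts in place of TPM, which drops the division by length, Ldhb held 69.9%, Pfkl 50.6% and Pkm 93.8% of their families, Pfkl-201 held 96.5% of Pfkl, Pfkp-206 28.8% of Pfkp and Pklr-202 90.9% of Pklr. With protein-coding transcripts only, Pfkl-201 held 76.4%. With TPM and a pseudocount of 1, 0 isoenzyme genes were past 2-fold in place of 1, and 353 of 18707 genes (1.89%). Without either library in turn, which leaves 1 library and its own value, Hk1 held 89.6% to 94.9%, Ldhb 73.3% to 75.6%, Pfkl 42.9% to 44.6% and Pkm 86.9% to 88.5% of their families. Likewise Hk1-202 held 82.7% to 92.7%, Pfkl-201 74.1% to 75.9%, Pfkp-206 65.3% to 66.8%, Pklr-202 32.0% to 39.5% and Pkm-201 79.9% to 85.0% of their genes, with 9 isoenzyme genes and 42 pathway genes detected each time. Rescaling TPM over nuclear protein-coding genes (factors of 1.35 and 1.55) moved 9 of 10 levels by over 1 SD, and 69 of 70 recomputed ratios stayed on their side of 2-fold, while Ldhb, Pfkl and Pfkp changed direction with TPM. No paired analysis was possible because the labels give only 1 group. Hk3 rests on 80 and 144 counts, and 0.856% of the 31-base words of Hk3-204 are absent from Hk3-201. A level rests on 2 libraries, so an SD has 1 degree of freedom.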
